A study of Homo sapiens with 6 samples.

Results

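The genes described here are fibroblast growth factor 2 (FGF2), its signalling receptors FGFR1, FGFR2, FGFR3 and FGFR4, the receptor-like gene FGFRL1, and 4 genes for cell surface proteoglycans that bind FGF2, namely SDC1, SDC2, SDC4 and GPC1. They were chosen by name, through their Entrez identifiers, and make up 10 of the 23459 genes in the count table. All 10 had enough reads to be tested, among 13124 genes tested in all. RNA sequencing was done on 6 libraries of T47D-YA cells, in 3 groups of 2. T47D-YA comes from T47D, a human luminal breast cancer line, and is known for carrying the A isoform of the progesterone receptor. All groups share this parental line, but mRNA of PGR, the gene of that receptor, was lower in both overexpressing groups. The control group held an empty vector and is called MOCK in the labels. The second group overexpressed the 18 kDa FGF2 isoform, and the last group overexpressed the 22.5 kDa isoform. No source used here gives the vector's promoter, the constructs' sequence or the number of clones. The libraries of a group are numbered, but nothing says that they came from separate cultures, so the p-values measure only the spread between libraries, which may be technical.

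FGF2 is a heparin-binding growth factor. It engages a receptor tyrosine kinase of the FGFR family together with a heparan sulfate chain, and the chain is carried by a proteoglycan such as a syndecan or a glypican. The activated receptor signals through the adaptor FRS2 to RAS and ERK, and ERK activity induces its own inhibitors, among them the DUSP phosphatases and the Sprouty proteins. One FGF2 mRNA gives several proteins. Translation from the AUG gives the 18 kDa form, which can be exported and act on receptors, and translation from CUG codons further upstream gives longer forms that go mainly to the nucleus.

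The start codons are shown because they are what separates the overexpressed isoforms. The windows below are read from the plus strand of GRCh38, on chromosome 4, with the start codon in capitals. The first 3 lines hold CTG codons in frame with the ATG, and the last holds the ATG.
FGF2 CTG, 165 bases before the ATG, chr4:122827001-122827024: ggctcgaggCTGggggaccgcggg
FGF2 CTG, 138 bases before the ATG, chr4:122827028-122827051: ggccgcgcgCTGccgggcgggagg
FGF2 CTG, 123 bases before the ATG, chr4:122827043-122827066: ggcgggaggCTGgggggccggggc
FGF2 ATG, chr4:122827166-122827189: gcagggaccATGgcagccgggagc
Reading from the ATG gives 155 codons, and these make the 18 kDa protein. The CTG at 138 bases before it adds 46 codons, for 201 in all, and is the known start of the 22.5 kDa protein. The other CTG codons shown add 55 and 41. A further CTG in frame, not shown, lies 399 bases before the ATG and adds 133 codons. The 46 added codons are 88.4% G and C, against 51.7% over the 468 bases that follow the ATG. All these bases lie in one gene, so counts per gene cannot tell one isoform from the other, nor the transgene from the cells' own FGF2.

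The counted totals ran from 5317687 to 6817324 reads per library, and 5136 of the 23459 genes had no read in any library. Luminal markers were present in all libraries: all 9 were tested, and their summed level was 15606 to 20472 counts per 1000000 (CPM) with the empty vector, 19188 to 22753 with 18 kDa FGF2 and 12303 to 15199 with 22.5 kDa FGF2. The 2 luminal markers that passed lower in both comparisons were the hormone receptor genes ESR1 and PGR. CPM here is relative to library sizes scaled with edgeR's trimmed mean of M-values (TMM). Of the fibroblast markers 5 of 9 were tested, with sums of 69.2 to 83.5, 56.0 to 57.3 and 54.7 to 59.9 CPM in the same order, and THY1 passed lower in edgeR in both comparisons with the empty vector. Sums stayed at or below 6.08 CPM for 6 endothelial markers, with TEK at 0 in all libraries, and at or below 6.19 CPM for 6 leukocyte markers, with CD3E at 0. With 18 kDa FGF2, the endothelial marker VWF passed higher (log2 fold change 2.31, adjusted p = 0.0118 in edgeR) and KDR lower (-1.76, adjusted p = 0.047). These calls rest on few reads: VWF went from 3 and 6 counts to 25 and 26, and KDR from 30 and 13 to 9 and 5. With DESeq2, 0 endothelial and 0 fibroblast markers passed with 18 kDa FGF2. In bulk RNA, fewer cells of a type and less RNA per cell cannot be told apart.

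Between the empty vector and 18 kDa FGF2, 8.88% of all tested genes passed at an adjusted p under 0.05 in edgeR's quasi-likelihood test, 4.09% higher and 4.79% lower. The shares were 10.9% with 22.5 kDa FGF2 (5.02% higher, 5.88% lower) and 1.58% between the isoforms (1.13% higher with 22.5 kDa, 0.45% lower). FGF2 was changed by design and is left out of the following counts. Of the other 9 genes, 1 rose and 4 fell with 18 kDa FGF2, with a median log2 fold change of -0.99 beside -0.05 over all tested genes. With 22.5 kDa FGF2, 0 rose in edgeR and 3 fell (at an unadjusted p under 0.05, 1 and 3, and with DESeq2, 0 and 3), with a median of -0.48 beside 0.01 over all genes. Between the isoforms, 1 was higher and 1 lower with 22.5 kDa FGF2. The CPM of the groups did not overlap for 9, 6 and 5 of the 9 genes in these comparisons, against 52%, 52.9% and 38.1% of all tested genes. The comparisons with the empty vector use the same 2 control libraries, so they are not independent.

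**Figure D1:**
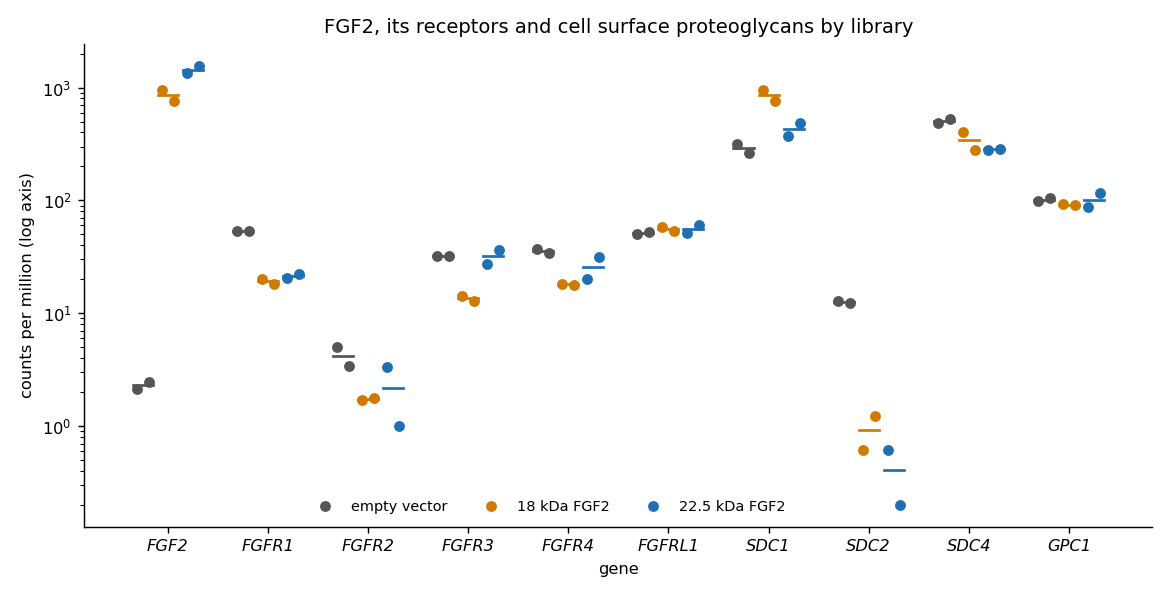
CPM (log axis) of the 10 genes in each of the 6 libraries; points are libraries, coloured by group, and short lines are the means of 2 libraries. FGF2 sits near 2 CPM with the empty vector and at 767 CPM or more in both overexpressing groups, and SDC2 falls from above 12 CPM to 1.23 CPM or less.

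FGF2 (Entrez 2247, chromosome 4), the ligand, had 12 and 13 counts with the empty vector. It had 6259 and 4365 counts with 18 kDa FGF2, and 8731 and 7758 with 22.5 kDa FGF2. By level, it ranked 12399 and 12051 of 13124 tested genes in the empty vector libraries, 100 and 124 with 18 kDa FGF2, and 39 and 38 with 22.5 kDa FGF2. The overexpressed gene thus moved from near the bottom of the tested genes to among the most abundant, and the labels of all 4 overexpressing libraries hold in this respect. In CPM these levels were 2.29 ± 0.208 (SD, n = 2), 864 ± 137 (SD, n = 2) and 1444 ± 157 (SD, n = 2). Both libraries of the 22.5 kDa group lay above both of the 18 kDa group, but the difference of 0.74 on the log2 scale (SE 0.23, 95% interval 0.27 to 1.22) missed the threshold in edgeR, with an adjusted p of 0.119. It passed with DESeq2 (adjusted p = 0.0371) and, in edgeR, without the replicate 1 libraries of both FGF2 groups (1.02, adjusted p = 0.00247). FGF2 mRNA therefore cannot be taken as equal in the 2 groups in any comparison between the isoforms below.

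NUDT6, which is transcribed from the opposite strand and overlaps FGF2 by 804 exon bases (11.9% of those of FGF2 in GENCODE 29), had 12 and 17 counts with the empty vector. It had 7 and 6 counts with 18 kDa FGF2, and 7 and 1 with 22.5 kDa FGF2. Its counts were thus not raised along with those of FGF2. NUDT6 did not pass in edgeR with 18 kDa FGF2 (log2 fold change -1.30, SE 0.59, adjusted p = 0.208) or with 22.5 kDa FGF2 (-1.93, SE 0.64, adjusted p = 0.0531). The 22.5 kDa value sat at the threshold and rests on 7 and 1 counts. It did not pass with DESeq2. In edgeR it passed with other size factors (adjusted p = 0.04), with no low-count filter (0.0421), with only the groups compared (0.026) and after GC correction (0.0294). Without the replicate 1 libraries of both FGF2 groups it was -3.58 (adjusted p = 0.0233). No source used here says whether counting used the strand, so reads from the overlap cannot be assigned. FGFR1 shares 138 exon bases with LETM2 and 156 with AC087623.1, and for the other 8 genes there was no exon overlap in GENCODE 29.

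Among the signalling receptors, FGFR1 fell with both isoforms, while FGFR3 and FGFR4 fell with 18 kDa FGF2. FGFR1 (Entrez 2260, chromosome 8), the receptor most often amplified in luminal breast cancer, had 297 and 284 counts with the empty vector. It had 132 and 103 with 18 kDa FGF2, and 134 and 111 with 22.5 kDa FGF2. Both overexpressing groups lay below the empty vector with no overlap, and they were close to each other, at 20.3 and 18.1 CPM with 18 kDa FGF2 and 20.5 and 22.3 CPM with 22.5 kDa FGF2. FGFR1 was at 53.2 ± 0.128 CPM (SD, n = 2), 19.2 ± 1.53 CPM (SD, n = 2) and 21.4 ± 1.26 CPM (SD, n = 2). FGFR1 fell by 1.47 on the log2 scale with 18 kDa FGF2 (SE 0.27, adjusted p = 0.000506 in edgeR). It fell by 1.32 with 22.5 kDa FGF2 (SE 0.27, adjusted p = 0.00127 in edgeR). Between the isoforms the difference was 0.15, with a 95% interval from -0.40 to 0.71 and an adjusted p of 0.866, so a difference of up to 0.71 lies within the interval. Both falls passed under all 15 alternative settings of each comparison.

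FGFR3 (Entrez 2261, chromosome 4), which like FGFR1 binds FGF2 in its IIIc splice form, was the receptor whose level differed between the isoform groups. Its counts were 179 and 171 with the empty vector, 93 and 73 with 18 kDa FGF2, and 180 and 182 with 22.5 kDa FGF2. In CPM the empty vector libraries, at 32.0 and 32.1, lay inside the range of the 22.5 kDa libraries, at 27.5 and 36.5, and both 18 kDa libraries were lower, at 14.3 and 12.8. FGFR3 fell by 1.24 on the log2 scale with 18 kDa FGF2 (SE 0.29, adjusted p = 0.00609 in edgeR). Its difference from the empty vector with 22.5 kDa FGF2 was -0.01 (SE 0.28, 95% interval -0.59 to 0.57, adjusted p = 0.996). The direct test between the isoforms gave 1.23 (SE 0.29, 95% interval 0.63 to 1.84, adjusted p = 0.0241), higher with 22.5 kDa FGF2. The 18 kDa call was lost without empty vector replicate 1 (adjusted p = 0.0591) or 2 (adjusted p = 0.062). The isoform call was lost without 18 kDa replicate 1 (adjusted p = 0.0552), 22.5 kDa replicate 1 (adjusted p = 0.0904) or 22.5 kDa replicate 2 (adjusted p = 0.221), while the value stayed between 0.99 and 1.40 in these fits.

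FGFR4 (Entrez 2264, chromosome 5), whose product also binds FGF1 and FGF19, had 208 and 184 counts with the empty vector, 118 and 102 with 18 kDa FGF2, and 133 and 157 with 22.5 kDa FGF2. The 18 kDa libraries agreed closely, at 18.1 and 17.9 CPM, and lay below the empty vector libraries, at 37.2 and 34.5. The 22.5 kDa libraries were spread over 20.3 and 31.5 CPM, between the other groups. FGFR4 fell by 0.99 with 18 kDa FGF2 (SE 0.29, adjusted p = 0.0321 in edgeR). The call was lost without empty vector replicate 1 (adjusted p = 0.256) or 2 (adjusted p = 0.149) and without 18 kDa replicate 1 (adjusted p = 0.0893) or 2 (adjusted p = 0.0717). With 22.5 kDa FGF2 the value was -0.48 (95% interval -1.07 to 0.12, adjusted p = 0.345), and between the isoforms it was 0.52 (95% interval -0.09 to 1.12, adjusted p = 0.505). That FGFR4 passed with one isoform and not with the other is therefore not shown to be a difference between them.

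FGFR2 (Entrez 2263, chromosome 10), a receptor gene at a breast cancer risk locus, had the fewest reads of the 4 receptors. Its counts were 28 and 18 with the empty vector, 11 and 10 with 18 kDa FGF2, and 22 and 5 with 22.5 kDa FGF2. The 22.5 kDa libraries differed by 1.75 on the log2 scale, more than any other gene of the set differed within a group. The 18 kDa libraries lay below the empty vector, and the 22.5 kDa libraries enclosed them. FGFR2 did not pass in edgeR with 18 kDa FGF2 (-1.28, 95% interval -2.37 to -0.18, adjusted p = 0.16), with 22.5 kDa FGF2 (-0.88, 95% interval -1.95 to 0.18, adjusted p = 0.319) or between the isoforms (0.39, adjusted p = 0.832). It passed with 22.5 kDa FGF2 without the replicate 1 libraries of both FGF2 groups (-2.04, adjusted p = 0.041). The intervals are wide at this depth, and the 18 kDa interval lies below 0 although the adjusted p missed the threshold.

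FGFRL1 (Entrez 53834, chromosome 4) codes for a receptor that binds FGFs but lacks a kinase domain. Its counts were 279 and 279 with the empty vector, 377 and 303 with 18 kDa FGF2, and 340 and 300 with 22.5 kDa FGF2. In CPM all 6 libraries lay between 49.9 and 60.1. The log2 fold changes were 0.12 (95% interval -0.34 to 0.58) with 18 kDa FGF2 and 0.13 (95% interval -0.33 to 0.59) with 22.5 kDa FGF2, with adjusted p values of 0.823 and 0.806 in edgeR. FGFRL1 thus passed in neither, and the intervals allow a rise of up to 0.59.

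**Figure D2:**
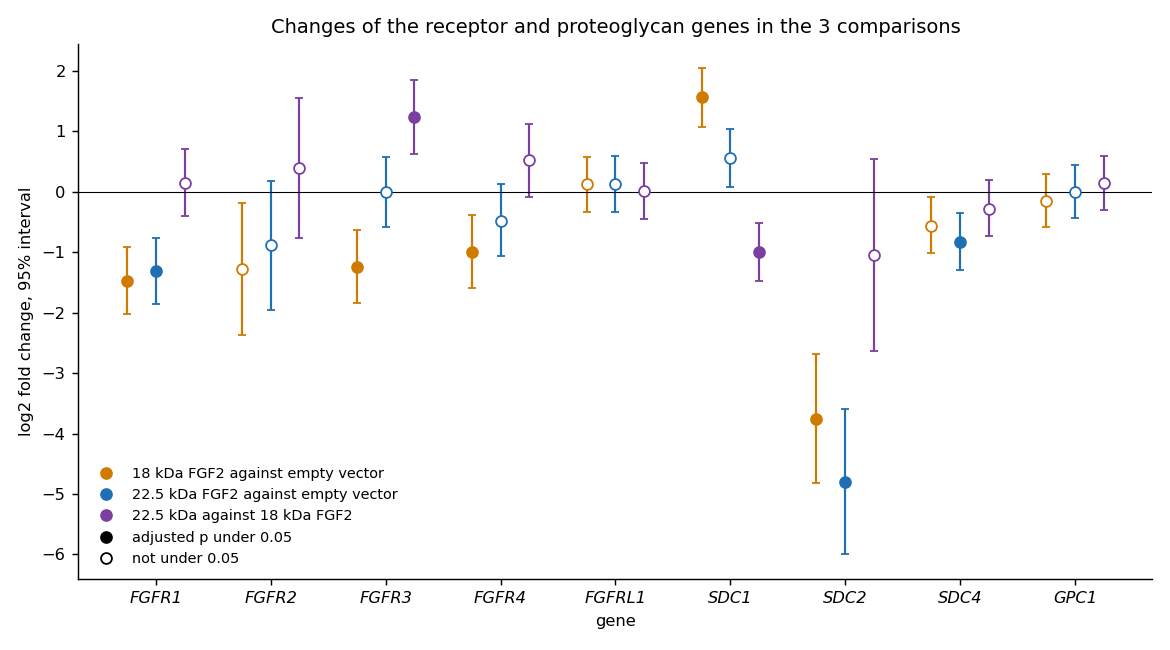
Log2 fold changes of the 9 genes other than FGF2 in the 3 comparisons, with 95% intervals worked out from edgeR's F statistics. Filled points had an adjusted p under 0.05 over 13124 genes. FGFR1 and SDC2 are filled below 0 against the empty vector for both isoforms, and only FGFR3 and SDC1 are filled between the isoforms, in opposite directions.

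Levels can be compared between genes only per length of transcript, and the answer depended on the length used. With the longest GENCODE transcript of each gene, the summed level of FGFR1 to FGFR4 was 28.2 ± 0.835 CPM per kilobase with the empty vector (SD, n = 2), 12.3 ± 0.509 with 18 kDa FGF2 (SD, n = 2) and 19.4 ± 3.78 with 22.5 kDa FGF2 (SD, n = 2). With the median transcript length the sums were 129 ± 2.90, 54.4 ± 2.42 and 75.3 ± 14.4 CPM per kilobase (SD, n = 2 each). On both scales the 3 groups kept their order and did not overlap. With the empty vector FGFR4 was above FGFR1 by longest transcript, at 11.5 and 8.56 CPM per kilobase, and below it by median length, at 50.04 and 64.6. FGFR2 was the lowest of the 4 on both scales, at 0.959 ± 0.264 and 1.62 ± 0.444 CPM per kilobase with the empty vector (SD, n = 2).

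The mix of receptor mRNAs moved less than the sum with 18 kDa FGF2. By longest transcript, FGFR3 made up 25.6% ± 0.801 of the receptor sum in the control group and 24.8% ± 0.850 in the 18 kDa group (SD, n = 2 each). Its share was 37.1% ± 0.159 in the 22.5 kDa group (SD, n = 2). By median length its share was 9.64%, 9.64% and 16.4%, so on both scales it was highest in the 22.5 kDa group. The share of FGFR1 was 30.3%, 25.1% and 17.9% by longest transcript, and 50.2%, 42.8% and 34.9% by median length. On both scales FGFR1 thus held its largest share with the empty vector and its smallest with 22.5 kDa FGF2, without overlap between libraries. These shares come from the same counts as the tests above and carry no test of their own.

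**Figure D3:**
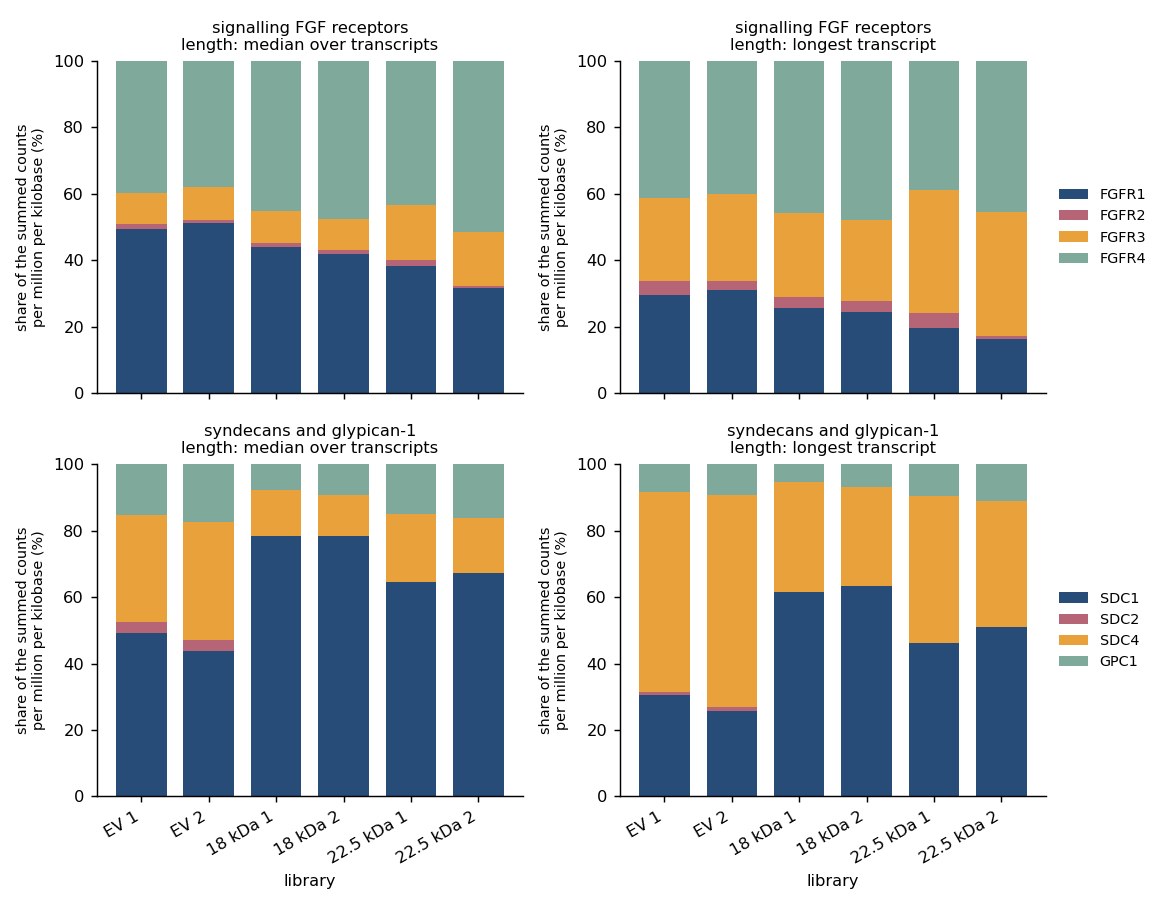
Share of each gene (%) in the summed CPM per kilobase of 4 receptors (top) and 4 proteoglycans (bottom), for the 6 libraries (EV, empty vector), with median (left) or longest (right) transcript length. The FGFR3 share is highest in the 22.5 kDa libraries and the SDC1 share is highest in the 18 kDa libraries on both scales.

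Among the proteoglycans, SDC1 rose with 18 kDa FGF2, SDC2 fell with both isoforms, and SDC4 fell with 22.5 kDa FGF2. SDC1 (Entrez 6382, chromosome 2) codes for syndecan-1, the main syndecan of epithelial cells and a plasma cell marker. It had 1753 and 1414 counts with the empty vector, 6193 and 4284 with 18 kDa FGF2, and 2440 and 2400 with 22.5 kDa FGF2. In CPM the 3 groups lay apart from each other, at 313 and 265, then 950 and 753, then 373 and 481. SDC1 rose by 1.56 with 18 kDa FGF2 (SE 0.24, 95% interval 1.07 to 2.04, adjusted p = 6.29e-05 in edgeR), under all 15 alternative settings. With 22.5 kDa FGF2 the value was 0.56 (SE 0.23, 95% interval 0.08 to 1.04) and missed the threshold, with an adjusted p of 0.133. It passed after each library's GC trend was removed (0.68, adjusted p = 0.0105) and without the replicate 1 libraries of both FGF2 groups (0.74, adjusted p = 0.00183).

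SDC1 was lower with 22.5 kDa than with 18 kDa FGF2 by the direct test, at -1.0 on the log2 scale (SE 0.23, 95% interval -1.48 to -0.52, adjusted p = 0.0214 in edgeR). This call was lost without 18 kDa replicate 1 (-0.82, adjusted p = 0.204), 22.5 kDa replicate 1 (-0.85, adjusted p = 0.259) or 22.5 kDa replicate 2 (-1.22, adjusted p = 0.0912). It was also lost without the replicate 1 libraries of both FGF2 groups (-0.65, adjusted p = 0.0932). By rank, SDC1 was at 530 and 762 of the tested genes with the empty vector, 106 and 129 with 18 kDa FGF2, and 376 and 337 with 22.5 kDa FGF2.

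SDC2 (Entrez 6383, chromosome 8) codes for syndecan-2, the syndecan typical of mesenchymal cells. It had 72 and 65 counts with the empty vector, 4 and 7 with 18 kDa FGF2, and 4 and 1 with 22.5 kDa FGF2. The empty vector libraries, at 12.9 and 12.2 CPM, were far above the others, the highest of which was at 1.23 CPM. SDC2 fell by 3.76 with 18 kDa FGF2 (SE 0.52, 95% interval -4.82 to -2.69, adjusted p = 1.73e-05 in edgeR), a 13.5-fold difference. It fell by 4.80 with 22.5 kDa FGF2 (SE 0.58, 95% interval -6.00 to -3.60, adjusted p = 2.47e-06 in edgeR), a 27.9-fold difference. Between the isoforms the value was -1.04 with a 95% interval from -2.63 to 0.54 (adjusted p = 0.636), which so few counts leave wide. Both falls passed under all 15 alternative settings.

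SDC4 (Entrez 6385, chromosome 20) codes for syndecan-4, which sits in focal adhesions. It had 2738 and 2783 counts with the empty vector, 2654 and 1596 with 18 kDa FGF2, and 1849 and 1427 with 22.5 kDa FGF2. In CPM both empty vector libraries, at 490 and 522, lay above the others. The 18 kDa libraries were spread over 407 and 280 CPM, and the 22.5 kDa libraries agreed, at 282 and 286. SDC4 fell by 0.83 with 22.5 kDa FGF2 (SE 0.23, 95% interval -1.30 to -0.36, adjusted p = 0.0164 in edgeR). The call was lost without empty vector replicate 1 (adjusted p = 0.0961) or 2 (adjusted p = 0.165) and without 22.5 kDa replicate 1 (adjusted p = 0.086) or 2 (adjusted p = 0.103). With 18 kDa FGF2 the value was -0.56 (95% interval -1.02 to -0.09, adjusted p = 0.144), and without the replicate 1 libraries of both FGF2 groups it was -0.84 (adjusted p = 0.000645). Between the isoforms it was -0.28 (95% interval -0.74 to 0.19, adjusted p = 0.672).

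GPC1 (Entrez 2817, chromosome 2) codes for glypican-1, which is held in the membrane by a lipid anchor. It had 548 and 562 counts with the empty vector, 608 and 514 with 18 kDa FGF2, and 570 and 581 with 22.5 kDa FGF2. In CPM all libraries lay between 87.0 and 117. The log2 fold change was -0.15 with 18 kDa FGF2 (95% interval -0.59 to 0.30, adjusted p = 0.765 in edgeR) and 0.00 with 22.5 kDa FGF2 (95% interval -0.44 to 0.44, adjusted p = 0.999). For both, a change of more than 0.59 in size lies outside the interval.

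Per kilobase, SDC1 and SDC4 were the leading proteoglycans of the set in every group, and which came first with the empty vector depended on the length. By median length SDC1 was at 267 and SDC4 at 194 CPM per kilobase with the empty vector, and by longest transcript they were at 87.9 and 194. With 18 kDa FGF2, SDC1 was above SDC4 on both scales, at 785 and 259 against 132 CPM per kilobase. As a share of SDC1, SDC2, SDC4 and GPC1 together, SDC1 went from 28.2% ± 3.29 with the empty vector to 62.4% ± 1.39 with 18 kDa FGF2 and 48.6% ± 3.32 with 22.5 kDa FGF2 by longest transcript (SD, n = 2 each). By median length the shares were 46.5%, 78.3% and 65.8%. SDC2 went from 1.07% to 0.0627% and 0.0425% by longest transcript. SDC1 thus had its largest share in the 18 kDa libraries on both scales, and it was also the leading gene with 22.5 kDa FGF2.

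The spread within groups was not even. In the 22.5 kDa group, replicate 2 was above replicate 1 for 8 of the 10 genes, and in the 18 kDa group for 2 of 10. In the empty vector group it was above for 6 of 10. The same count was not made over all tested genes, so these directions are not read as particular to the 10 genes. The gaps within the empty vector group were at most 0.24 on the log2 scale for all genes except FGFR2, at 0.57. Within the 18 kDa group they reached 0.54 for SDC4 and 1.00 for SDC2. Within the 22.5 kDa group they reached 0.63 for FGFR4, 1.61 for SDC2 and 1.75 for FGFR2.

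The other genes of the pathway were read from 6 lists, of ligands, proteoglycans, other binding partners, adaptors, inhibitors and syndecan partners, with 53 genes tested. No gene of these lists rose in edgeR with 18 kDa FGF2 (4 at an unadjusted p under 0.05, 0 with DESeq2) or with 22.5 kDa FGF2 (3 and 0). Over all tested genes, 4.09% and 5.02% passed higher in these comparisons, and 4.79% and 5.88% passed lower. With shares this small, 0 rises among 53 genes is not read as a result about these lists. Between the isoforms 0 of the 53 passed in edgeR or DESeq2, beside 1.58% of all tested genes in edgeR. At an unadjusted p under 0.05, 2 were higher and 4 lower. Of 21 other FGF ligands, 11 had no read in any library and only FGF11 and FGF13 were tested. Both belong to the intracellular FGFs, which are not secreted. FGF11 fell by 1.30 with 22.5 kDa FGF2 (SE 0.35, adjusted p = 0.0154 in edgeR), from 108 and 111 counts to 53 and 41. That call was lost without any one of the 4 libraries compared, with adjusted p values of 0.0882 to 0.139. With 18 kDa FGF2, 0 of the 2 passed in edgeR or DESeq2, also at an unadjusted p under 0.05. No other ligand of the list had enough reads to be tested, the highest total over the 6 libraries being 48 counts.

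Of 11 other heparan sulfate proteoglycans, 7 were tested, and 1 fell with 18 kDa FGF2 and 2 with 22.5 kDa FGF2, and none rose. The list medians were -0.26 and -0.20. GPC4, another glypican, had 77 and 79 counts with the empty vector, 22 and 10 with 18 kDa FGF2, and 34 and 28 with 22.5 kDa FGF2. It fell by 2.45 with 18 kDa FGF2 (SE 0.43, adjusted p = 0.000391 in edgeR) and by 1.40 with 22.5 kDa FGF2 (SE 0.41, adjusted p = 0.0239). The 22.5 kDa call was lost with DESeq2 (adjusted p = 0.0636) and without any one of the 4 libraries compared (adjusted p of 0.0989 to 0.155). GPC2 had 12 and 10 counts with the empty vector, 12 and 2 with 18 kDa FGF2, and 2 and 1 with 22.5 kDa FGF2. With 3 counts in all, its ratio of empty vector to 22.5 kDa FGF2 was 7.75, with an exact 95% counting interval of 2.33 to 40.4. That interval pools the libraries of a group and covers sampling noise only, so it leaves out the spread between libraries. GPC2 passed in edgeR with 22.5 kDa FGF2 (adjusted p = 0.0242) but not with DESeq2 (adjusted p = 0.228), nor without any one of the 4 libraries compared (0.0509 to 0.222).

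Of 20 adaptors and relay genes, all were tested, and 2 fell with 18 kDa FGF2. With 22.5 kDa FGF2, 0 passed in edgeR or DESeq2, and 1 was higher and 1 lower at an unadjusted p under 0.05. CRKL, an adaptor, had 1139 and 1265 counts with the empty vector and 864 and 630 with 18 kDa FGF2. It fell by 0.86 (SE 0.21, adjusted p = 0.00855 in edgeR), a call lost without empty vector replicate 2 (adjusted p = 0.202) or 18 kDa replicate 2 (adjusted p = 0.0864). Its value with 22.5 kDa FGF2 was -0.63 (adjusted p = 0.0529), and it passed without 18 kDa replicate 1 (adjusted p = 0.0471) or 2 (adjusted p = 0.0307). FRS2, the adaptor that docks on the receptors, had 131 and 48 counts with the empty vector and 25 and 40 with 18 kDa FGF2. It fell by 1.58 (SE 0.46, adjusted p = 0.0381), and without empty vector replicate 1 the value was -0.74 (adjusted p = 0.713). The call was also lost without 18 kDa replicate 1 (adjusted p = 0.177), 22.5 kDa replicate 1 (adjusted p = 0.0737) or 22.5 kDa replicate 2 (adjusted p = 0.102).

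Of 10 feedback inhibitors of FGF and ERK signalling, all were tested, and DUSP4 and DUSP5, phosphatases of ERK, fell with both isoforms. The list medians were -0.64 with 18 kDa FGF2 and -0.70 with 22.5 kDa FGF2. DUSP4 had 46 and 53 counts with the empty vector, 6 and 2 with 18 kDa FGF2, and 3 and 7 with 22.5 kDa FGF2. It fell by 3.76 (SE 0.57, adjusted p = 6.29e-05 in edgeR) and by 3.33 (SE 0.55, adjusted p = 0.000161). DUSP5 had 334 and 295, then 204 and 128, then 154 and 181 counts. It fell by 1.09 with 18 kDa FGF2 (SE 0.27, adjusted p = 0.00859), lost without empty vector replicate 1 (adjusted p = 0.0881) or 18 kDa replicate 2 (adjusted p = 0.0739). It fell by 0.95 with 22.5 kDa FGF2 (SE 0.27, adjusted p = 0.0206), lost without empty vector replicate 1 (adjusted p = 0.168) or 2 (adjusted p = 0.0911) or 22.5 kDa replicate 1 (-0.67, adjusted p = 0.225).

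Of 15 syndecan partners and sheddases, 10 were tested and HPSE alone passed, lower with both isoforms. HPSE codes for heparanase, which cuts the heparan sulfate chains of syndecans. Its counts were 38 and 36 with the empty vector, 6 and 17 with 18 kDa FGF2, and 15 and 10 with 22.5 kDa FGF2. It fell by 1.81 (SE 0.50, adjusted p = 0.0207 in edgeR) and by 1.64 (SE 0.49, adjusted p = 0.0307), and missed the threshold with DESeq2 in both (adjusted p of 0.135 and 0.17). The 18 kDa call was lost without either empty vector library (adjusted p of 0.0687 and 0.0557), without 18 kDa replicate 1 (-1.15, adjusted p = 0.253) or without 22.5 kDa replicate 2 (0.0703). The 22.5 kDa call was lost without any one of the 4 libraries compared (0.0862 to 0.212). Of 13 other genes for FGF binding and receptor partners, 4 were tested, and 0 passed in edgeR or DESeq2 in any comparison. At an unadjusted p under 0.05 they were 0 with 18 kDa FGF2, 1 with 22.5 kDa FGF2 and 1 between the isoforms.

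**Figure D4:**
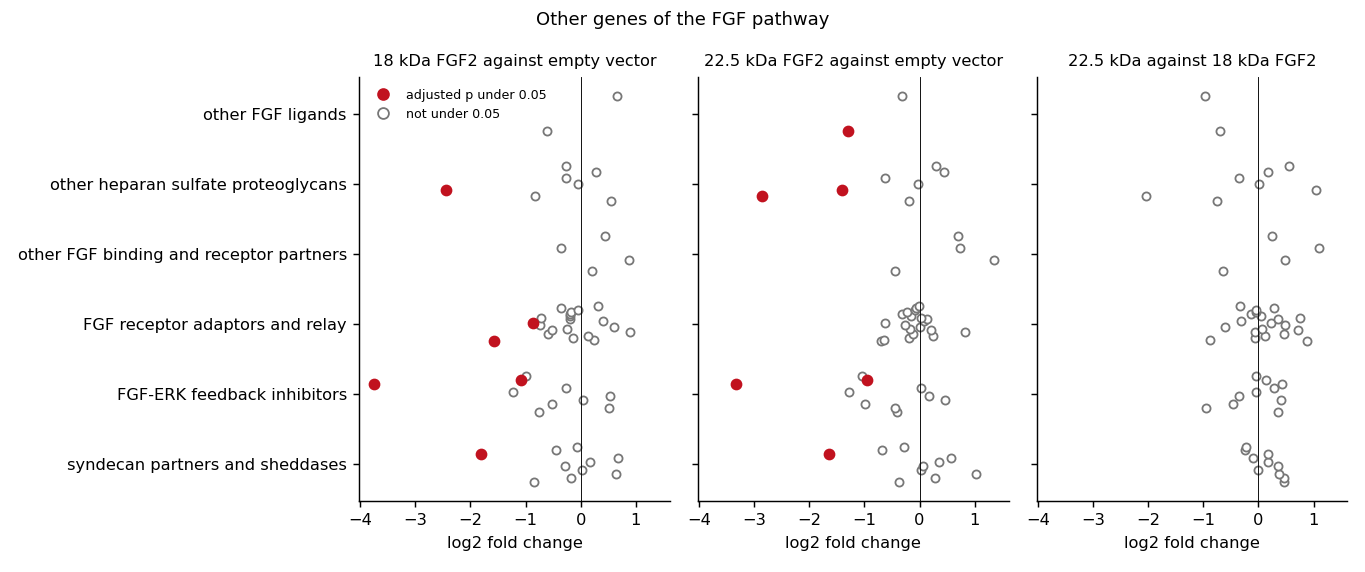
Log2 fold changes of the tested genes of 6 pathway lists in the 3 comparisons; each point is a gene, and red points had an adjusted p under 0.05 in edgeR over 13124 genes. All red points lie below 0, and none is present between the isoforms. Over all tested genes, 4.09% and 5.02% passed higher against the empty vector with 18 and 22.5 kDa FGF2, and 4.79% and 5.88% lower.

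To place the changes on the chromosome, each gene was set beside the 24 nearest tested genes, 12 on each side, in the RefSeq order. The neighbours of SDC1 were shifted upwards: their median log2 fold change was 0.66 with 18 kDa FGF2 and 0.73 with 22.5 kDa FGF2, and 8 and 6 of 24 passed higher, with 0 lower. SDC1 was 0.90 above its neighbours' median with 18 kDa FGF2 and 0.17 below it with 22.5 kDa FGF2. Between the isoforms the neighbours' median was 0.12, and SDC1 was below all 24. The part of this shift in the SDC1 result was not tested. The fall of SDC2 was not shared: its neighbours had medians of -0.20 and 0.14, and all 24 lay above it in both comparisons with the empty vector. FGFR1 was 1.45 and 1.35 below medians of -0.02 and 0.04, with 23 of 24 neighbours above it.

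FGFR3 lay below all 24 neighbours with 18 kDa FGF2, where their median was 0.09. Between the isoforms it lay above all 24, with a median of -0.23. FGFR4 was 1.23 below its neighbours' median of 0.24 with 18 kDa FGF2. The neighbours of SDC4 had medians of -0.30 and -0.29, and 5 of 24 passed lower in each comparison with the empty vector, so SDC4 was 0.54 below them with 22.5 kDa FGF2. The neighbours of GPC1 had a median of 0.67 with 22.5 kDa FGF2, with 6 of 24 passing higher, while GPC1 itself stayed at 0.00.

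**Figure D5:**
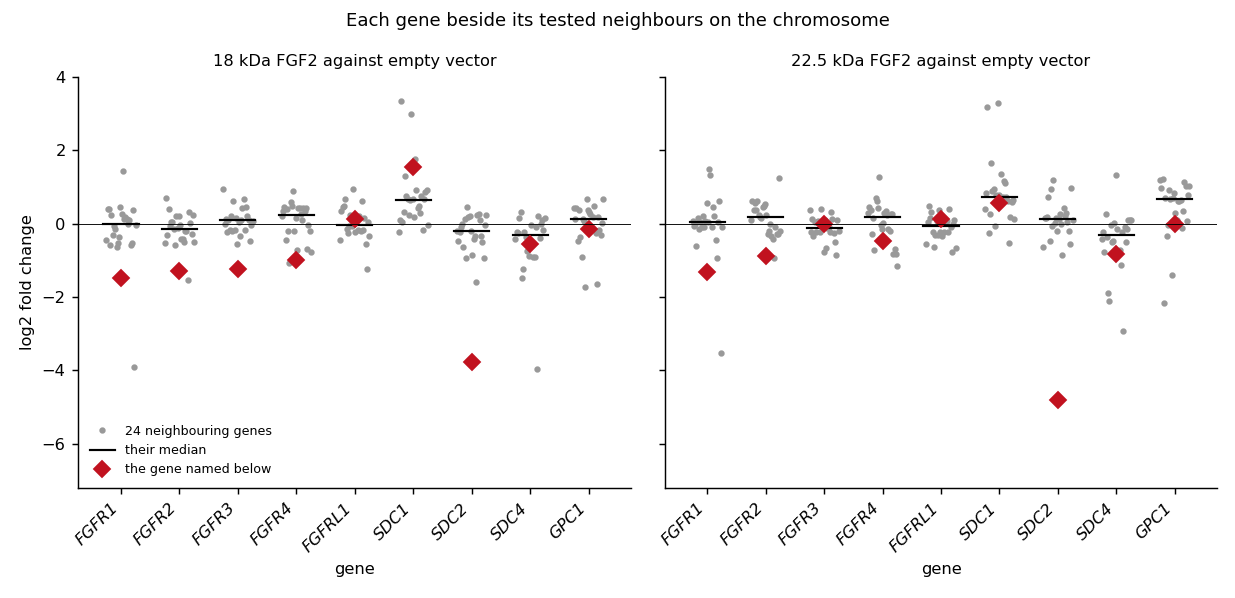
Log2 fold changes of 9 genes (diamonds) and of the 24 tested genes nearest to each on its chromosome (grey points, with their median as a line), against the empty vector, for 18 kDa (left) and 22.5 kDa FGF2 (right). SDC2 and FGFR1 lie below the bulk of their neighbours in both panels, and the neighbours of SDC1 centre above 0.

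The genes whose pattern was most like that of a gene of the set were read by the root mean square difference of centred log2 CPM over the 6 libraries, among genes averaging 3 or more in log2 CPM. Nearest to FGFR1 was DAP, with a difference of 0.111, followed by CACNB1 with 0.129. Nearest to SDC1 was ZYX, which codes for the focal adhesion protein zyxin, with 0.124, followed by USP11 with 0.165. ZYX was at 61.0 and 56.9 CPM with the empty vector, 177 and 121 with 18 kDa FGF2, and 73.2 and 90.8 with 22.5 kDa FGF2. Nearest to SDC2 was MAGEA10, with 0.277, and PGR, the progesterone receptor gene, was the third, with 0.518. PGR was at 228 and 202 CPM with the empty vector, 14.1 and 31.6 with 18 kDa FGF2, and 23.97 and 23.3 with 22.5 kDa FGF2. For GPC1 the nearest was SNAP47, with 0.026. These are descriptions over 6 libraries that share their groups.

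The promoters of FGFR3, FGFR4 and SDC1 are shown because FGFR3 and FGFR4 fell together with 18 kDa FGF2 while SDC1 rose. Each is the 250 bases before an annotated start in RefSeq (GRCh38.p14), 5′ to 3′ on the strand of the gene, with GC boxes (GGGCGG on either strand) in capitals.
FGFR3 promoter, plus strand, chr4:1793043-1793292: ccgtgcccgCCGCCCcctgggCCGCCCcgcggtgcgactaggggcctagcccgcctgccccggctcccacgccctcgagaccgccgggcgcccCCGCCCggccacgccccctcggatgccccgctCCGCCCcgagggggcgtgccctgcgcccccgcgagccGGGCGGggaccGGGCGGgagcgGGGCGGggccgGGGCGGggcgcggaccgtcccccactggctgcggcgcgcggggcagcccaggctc
FGFR4 promoter, plus strand, chr5:177086665-177086914: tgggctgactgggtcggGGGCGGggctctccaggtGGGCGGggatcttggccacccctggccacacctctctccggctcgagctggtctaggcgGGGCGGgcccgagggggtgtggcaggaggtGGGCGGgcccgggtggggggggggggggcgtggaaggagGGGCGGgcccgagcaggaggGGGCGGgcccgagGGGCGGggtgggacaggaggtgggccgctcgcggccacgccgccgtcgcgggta
SDC1 promoter, minus strand, chr2:20225476-20225725: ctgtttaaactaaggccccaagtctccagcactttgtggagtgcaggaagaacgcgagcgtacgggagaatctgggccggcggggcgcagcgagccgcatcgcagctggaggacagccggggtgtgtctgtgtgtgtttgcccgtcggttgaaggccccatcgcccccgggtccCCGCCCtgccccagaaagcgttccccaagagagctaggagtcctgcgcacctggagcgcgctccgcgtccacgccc
The FGFR3 window is 86.8% G and C and holds 8 GC boxes, the FGFR4 window is 79.6% with 7, and the SDC1 window is 66.4% with 1. The other FGFR4 window in RefSeq is 57.2% with 0, the other SDC1 window is 75.2% with 1, and the window of SDC4, which did not pass with 18 kDa FGF2, holds 8. RefSeq windows were counted for 8 of the 10 genes, 14 in all. FGFR1 and SDC2, which fell with both isoforms, were left out, so the motif counts here do not cover them. Of the 14 windows, 10 held a GC box, against 42.6% of all 35116 windows of the same length. The AP-1 motif TGANTCA was in 0 of the 14 and in 6.6% of all windows, and AGAACA, a core motif of the progesterone and androgen receptors, was in 0 of the 14 and in 12.4% of all. GGTCA, a core motif of the estrogen receptor, was in 5 of the 14 and in 32.6% of all. The windows are annotated starts and not genes. FGFR2, which passed in no main comparison, had the most windows of any gene here and most of the GGTCA matches. The shares of the 14 windows are thus weighted towards FGFR2 and are not read as a trait of the gene set. A match of letters is a description and not a bound site.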

How the data were processed

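The values are whole-number counts of reads per Entrez gene in 6 libraries, as the authors deposited them. Per the labels' protocols, TriReagent served for extraction and a TruSeq kit for directional libraries, read as pairs. Per the submitters' processing notes the build was hg19 and edgeR was used, and no source used here names the aligner, the counter or its strand setting. The totals are far below the reads per sample in the labels. Symbols for 23308 genes and the gene order came from RefSeq (GRCh38.p14), and transcript lengths and FGF2 start codons from GENCODE 29. In edgeR 4.0.16 (R 4.3.3), filterByExpr removed 10335 genes, libraries were scaled by TMM, and all groups were fitted in one robust quasi-likelihood model with 3 residual degrees of freedom and a biological coefficient of variation of 0.199. Benjamini-Hochberg adjustment ran over 13124 genes, with a threshold of 0.05. The SE was worked out as the size of the log2 fold change over the square root of edgeR's F statistic. The 95% intervals were built from this SE and a t distribution with the test's total degrees of freedom, and are approximate at low counts. The replicates of a group differed beyond sampling noise (chi-square per degree of freedom of 6.20 to 14.3). All 10 genes are named. From each pathway list, up to 3 genes that passed are named, by p. The genes and lists were chosen with earlier results of these data known. Alternatives included DESeq2 1.42.0, other scaling, no filter, a replicate block, GC correction, a fold of 1.5 and leaving out libraries. The script was tested on simulated data.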

Additional observations from a re-analysis of the deposited data

Results flagged for a closer look

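FGFR3 and SDC1 differed between the isoform groups by a direct test. FGFR3 was higher with 22.5 kDa than with 18 kDa FGF2, by 1.23 on the log2 scale (adjusted p = 0.0241 in edgeR), in 2 of 2 libraries. SDC1 was lower, by -1.0 (adjusted p = 0.0214 in edgeR), in 2 of 2 libraries. In both cases the 22.5 kDa group lay nearer to the empty vector than the 18 kDa group did. FGF2 mRNA was itself at 864 CPM in the 18 kDa group and at 1444 CPM in the 22.5 kDa group. Its part in these differences was not tested. Each isoform was present in a single group of cells and at a single level. Isoform, amount and any other difference between the cells of the groups therefore cannot be told apart.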

How the results depend on the processing

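Over 15 alternatives per comparison, FGF2, FGFR1 and SDC2 passed in every fit against the empty vector, as did SDC1 with 18 kDa FGF2. Against a fold of 1.5, the 18 kDa calls of FGFR3, FGFR4, FRS2, CRKL, DUSP5 and HPSE were also lost. So were the 22.5 kDa call of SDC4 and the isoform calls of FGFR3 and SDC1. With only the groups compared, FRS2 and HPSE missed the threshold with 18 kDa FGF2 (adjusted p of 0.0971 and 0.0644 in edgeR). Without the replicate 1 libraries of both FGF2 groups, these 18 kDa values were -1.20 and -1.17. The number of the 10 genes that passed was 6 with 18 kDa FGF2 (4 to 8 over the alternatives), 4 with 22.5 kDa FGF2 (3 to 6) and 2 between the isoforms (0 to 3). The last count was 0 against a fold of 1.5, 3 with DESeq2 and 0 to 2 without one library. Over all genes, the 1165 calls with 18 kDa FGF2 became 1902 after GC correction, 496 against a fold of 1.5, 1915 without the replicate 1 libraries of both FGF2 groups, and 617 to 1440 without one library. The 1431 calls with 22.5 kDa FGF2 became 2363, 643, 2535 and 630 to 1964, and the 207 between the isoforms became 322, 78, 354 and 37 to 733, and 445 with no low-count filter. GC correction moved the higher share of calls from 46.1% to 53.6% with 18 kDa FGF2 and from 46.1% to 56.1% with 22.5 kDa FGF2, and a fold of 1.5 moved the first to 33.9%. The differences between replicate 1 and replicate 2 in log2 CPM were correlated between groups over 13124 genes. The correlation was -0.27 for the empty vector and 18 kDa groups and 0.39 for the empty vector and 22.5 kDa groups. For the 18 and 22.5 kDa groups it was -0.41. Replicate numbers thus did not pair the libraries in the same way across the 3 groups. With the replicate block, 1210, 1523 and 337 genes passed, with NUDT6 among those gained with 22.5 kDa FGF2 (adjusted p = 0.0354). With the 18 kDa numbers crossed, chosen after the data were seen, 2434, 2910 and 1208 passed, with FGFR2 (-1.24, adjusted p = 0.0363) and SDC1 (0.54, adjusted p = 0.0287) among those gained with 18 and 22.5 kDa FGF2.

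Values that changed sign were all uncalled. For FGFR3 with 22.5 kDa FGF2 they were 0.012 with no filter, 0.0072 with DESeq2, 0.0092 with only the groups compared, 0.12 after GC correction, 0.19 without both replicate 1 libraries, and -0.21 to 0.18 without one library. For GPC1 with 22.5 kDa FGF2 they were 0.0015 with other size factors, 0.017, 0.012, 0.015, 0.13, 0.20 in the same order, and -0.21 to 0.19 without one library. Between the isoforms, without both replicate 1 libraries, FGFR2 was at -0.80 and SDC4 at 0.029. Without one library FGFR2 ran from -0.79 to 0.93, FGFRL1 from -0.12 to 0.087, SDC4 from -0.58 to 0.016 and GPC1 from -0.10 to 0.32. FRS2 with 22.5 kDa FGF2 ran from -1.22 to 0.15. The cause was not tested, beyond the fewer libraries of some fits. With 2 libraries per group and few reads for FGFR2 and SDC2, small differences in these genes were not detectable.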
